A study of Homo sapiens with 11 samples.

Results

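The AA132 dose series holds 24 RNA sequencing libraries, 3 at each of 8 doses (0.1, 0.3, 1, 3, 6, 10, 15 and 30 µM), out of 33 libraries in the study. They were chosen by label alone, as all columns named for AA132. All libraries come from wild-type HEK293T cells, a line long established from human embryonic kidney, harvested after 6 h of treatment. The other 9 libraries are vehicle (0.1% DMSO), thapsigargin (Tg) at 500 nM and the compound AA147 at 10 µM, with 3 each. Per condition, 3 numbered columns stand in the table against 1 sample in the labels, which leave unsaid whether the columns are separate cultures. The p-values below therefore measure only the spread between these libraries, which may be technical. A single cell line at a single time was studied. Each gene was regressed on log10 dose within the AA132 libraries, without vehicle, to ask which transcripts follow the dose and with what curve.

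The endoplasmic reticulum (ER) folds secreted and membrane proteins. When unfolded proteins build up there, the unfolded protein response acts through ATF6, which raises ER chaperones, through IRE1 and the spliced factor XBP1s, which raise secretion and degradation genes, and through the kinase PERK. PERK feeds the integrated stress response, in which ATF4 raises amino acid transport and synthesis genes. Thapsigargin blocks the ER calcium pump and so triggers every arm. HSPA5 encodes BiP, the main ER chaperone and a standard ATF6 readout. HMOX1 encodes heme oxygenase 1 and is a standard target of NRF2, the factor that answers electrophiles and oxidants.

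AA132 library totals ran from 32.3 to 37.7 M counts, and 10 µM library 3 alone was under 36.4 M. The number of genes with a count lay between 21213 and 21926. The 9 markers of HEK293T cells summed to between 2155 and 2939 CPM (counts scaled to a common library size), with the lowest sums at 30 µM (2155 to 2279 CPM, against 2608 to 2725 CPM at 0.1 µM). In bulk RNA, fewer cells of a type and less RNA per cell cannot be told apart. The 11 markers of other cell types summed to between 149 and 191 CPM, nearly all of it EPCAM (113 to 155 CPM) and COL1A1 (25.4 to 46.2 CPM), and UMOD was at 0 throughout. Mitochondrially encoded mRNA took 2.45% to 4.55% of counts, with 3.18% to 4.55% at 30 µM and 3.06% to 3.73% at 0.1 µM.

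Libraries treated as standing apart from the others of their dose numbered 3, picked after seeing the data on 2 different measures. In 1 µM library 1, the median of the rising genes was 0.0764 log2 units above the mean of the 2 lowest doses, against 0.0142 and -0.003 in the other 1 µM libraries. In 3 µM library 3 the same median was 0.0225, against 0.0847 and 0.127 in the other 3 µM libraries. So 1 µM library 1 lay near 3 µM libraries 1 and 2, and 3 µM library 3 lay near 1 µM libraries 2 and 3. Also apart was 10 µM library 1, whose genes differed from the mean of the other 10 µM libraries by a median of 0.157 log2 units, where the other AA132 libraries had 0.0559 to 0.105. By this difference 30 µM library 3 (0.105) lay further out than 1 µM library 1 (0.0855) and 3 µM library 3 (0.0782). It was kept in every fit described as without the 3 libraries. Whether the columns of 1 µM library 1 and 3 µM library 3 were exchanged was not tested. All libraries were kept as labelled, so the 1 and 3 µM values, low-dose slopes and midpoint doses depend on those labels. Results that rest on these libraries are given with and without them, and the fit without all 3 uses 21 libraries. Because 1 µM library 1 and 3 µM library 3 were picked on the rising genes, leaving them out favours low-dose calls in those genes.

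HMOX1 (chromosome 22, 35380361 to 35394214, GRCh38, GENCODE v44) was flat at the lowest doses and rose up to the highest. It had 12.7, 13.7 and 13.1 CPM at 0.1 µM and 11.2, 12.4 and 10.99 CPM at 0.3 µM, against 16.4, 11.1 and 11.9 CPM in vehicle. At 1 µM it had 39.8, 11.5 and 12.1 CPM, and at 3 µM 49.3, 43.9 and 14.2 CPM, so libraries of these doses overlapped each other. From 6 µM upward each library stood above every library at 0.1 to 3 µM, with 68.8, 76.3 and 66.4 CPM at 6 µM and 70.7, 126 and 118 CPM at 10 µM. At 15 µM the values were 154, 159 and 153 CPM, and at 30 µM 208, 189 and 205 CPM, with no overlap between these last 2 doses. The slope was 1.81 ± 0.12 log2 units per 10-fold dose (SE, n = 24, adjusted p = 4.53e-12). Its curvature, the quadratic term on log10 dose, was 0.57 (adjusted p = 0.0226, and 0.0601 without 0.1 µM library 2), a rise that steepens along the logarithm of dose. On dose rank the curvature of HMOX1 was -0.0021 (adjusted p = 0.972) and on dose in µM it was -0.0081 (adjusted p = 4.86e-06), so the sign of the bend belongs to the logarithmic axis. The midpoint dose, at which the log2 level was midway between the mean of 0.1 and 0.3 µM and the value at 30 µM (given where that change was at least 0.5), was 4.19 µM for HMOX1, and 3.34 to 4.56 µM when each library was left out in turn.

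HSPA5 (chromosome 9, 125234853 to 125241382) rose with dose and levelled off at the high doses. It had 948, 1022 and 1041 CPM at 0.1 µM, 1084, 1095 and 1099 CPM at 0.3 µM, and 1025, 973 and 881 CPM in vehicle. At 1 µM it had 1660.0, 1028 and 1093 CPM, and at 3 µM 1921, 1969 and 1042 CPM, with the high and the low value in the same libraries as for HMOX1. The levels then were 2406, 2376 and 2333 CPM at 6 µM, 1854, 2687 and 2836 CPM at 10 µM, 2706, 2791 and 2923 CPM at 15 µM and 2449.5, 2646 and 2814 CPM at 30 µM. Libraries at 6 and 30 µM did not overlap, while those at 15 and 30 µM did. HSPA5 had a slope of 0.68 ± 0.06 (adjusted p = 1.71e-10) and a midpoint dose of 3.06 µM (2.01 to 3.55 µM). The difference between 30 µM and the mean of 10 and 15 µM was 0.0053 ± 0.14 log2 units for HSPA5 (adjusted p = 0.992), and -0.08 (adjusted p = 0.354) without the 3 libraries. For HMOX1 that difference was 0.65 ± 0.24 (adjusted p = 0.182), and without the 3 libraries 0.54 (adjusted p = 6.99e-07).

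**Figure D1:**
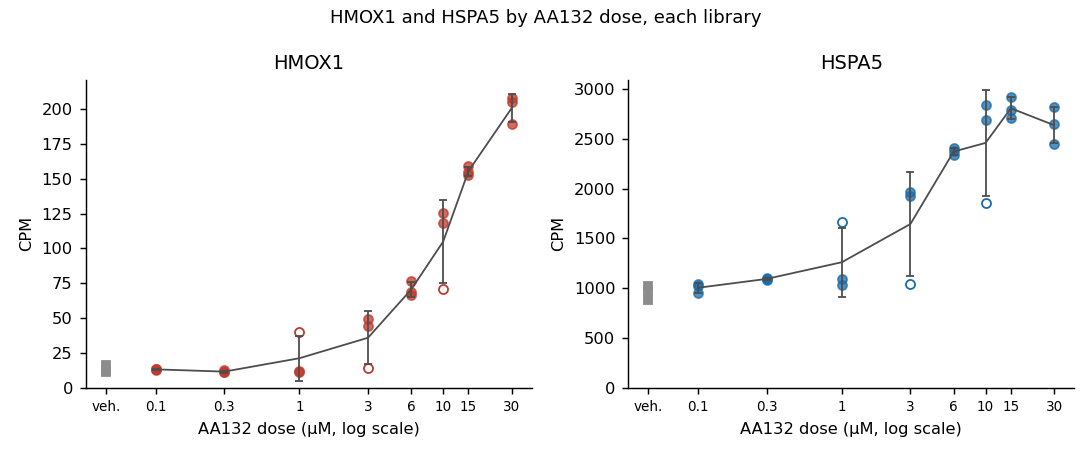
CPM of HMOX1 (left) and HSPA5 (right) in each AA132 library against dose on a log axis. Circles are libraries, open circles the 3 libraries that stood apart (1 µM library 1, 3 µM library 3, 10 µM library 1), lines and bars the mean ± SD of all 3 libraries at a dose, and grey squares the vehicle libraries. HMOX1 at 30 µM lies above all 15 µM libraries, while HSPA5 at 30 µM lies within the range seen at 10 and 15 µM.

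The slope on log10 dose called 1710 of 17793 genes as rising (9.61%) and 1566 as falling (8.8%). Most slopes were small: the median size was 0.126 log2 units per 10-fold dose among rising and 0.0965 among falling genes. The curvature term called 477 genes upward (2.68%) and 403 downward (2.26%), and these counts were 267 and 222 without 30 µM library 2 and 687 and 631 without 10 µM library 1. Where a rising gene had a called curvature it was mostly upward, in 225 genes against 2. The 2 are ANXA1, which encodes annexin A1 (slope 0.10, curvature -0.15, adjusted p = 0.0154), and CUZD1, whose highest dose mean was 0.81 CPM. Where a falling gene had a called curvature it was mostly downward, in 181 genes against 2, SZRD1 and TIPARP. These exceptions were named after their values were seen.

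A further 470 genes had a called curvature without a called slope. Among them, 220 bent downward (here called a hump), with the highest dose mean at 3 µM in 92 and at 6 µM in 76. The other 250 bent upward (a trough), lowest at 3 µM in 107, at 6 µM in 65 and at 1 µM in 56. At 30 µM the median of the hump genes stood 0.22 log2 units below the 2 lowest doses (-0.22), and that of the trough genes was 0.16 above. At 3 µM the median of the hump genes was 0.126 above the 2 lowest doses. All were picked by their curvature on log10 dose without a slope, so an extreme inside the range follows largely from that choice. The 3 µM means include library 3, which stood apart.

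Curve shapes were described for genes with a slope call, counts in all 24 libraries and a change of at least 0.5 log2 units between the first pair of doses (0.1 and 0.3 µM) and the last (15 and 30 µM). Steps between successive pairs (0.1 and 0.3, 1 and 3, 6 and 10, 15 and 30 µM) were taken as percent of the total, where a straight line gives 47.9%, 31.2% and 21%. Early genes made at least 65% of the change in the first step, middle genes at least 50% in the second, late genes at least 50% in the third, and even genes none of these. Among 261 rising genes, 23 were early, 87 middle, 42 late and 109 even. Among 143 falling genes, 6 were early, 62 middle, 40 late and 35 even. The median midpoint dose was 4.29 µM over 245 rising genes (quartiles 2.16 and 7.33 µM) and 5.83 µM over 134 falling genes (quartiles 3.21 and 9.8 µM). Without the 3 libraries, 30 rising genes were early, 117 middle, 29 late and 93 even, and 14 falling genes were early, 66 middle, 41 late and 39 even.

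**Figure D2:**
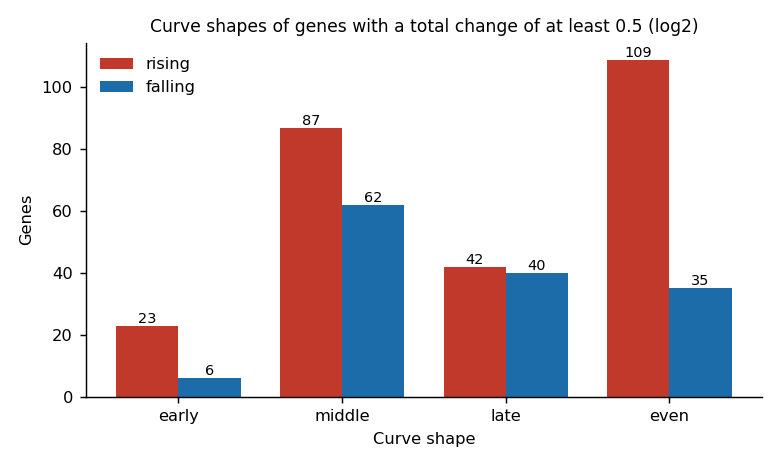
Number of genes in each curve shape (bars, from 0), by direction, among the 261 rising and 143 falling genes with a change of at least 0.5 log2 units. Early shapes hold 23 rising and 6 falling genes in the fit of all 24 libraries, and without the 3 libraries that stood apart 30 rising genes are early against 29 late.

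Among genes of at least 1 CPM at their highest dose, those with the largest change in each shape often lay near that limit. LUCAT1, a long noncoding RNA, led the early rising genes with means of 0.485 CPM at 0.1 µM and 1.01 CPM at 30 µM (midpoint dose 0.89 µM), followed by NECTIN4 and C14orf39. The middle rising genes were led by HSPA6, DDIT3 and BEST1, and the even ones by HMOX1, OSGIN1 and LINC00624. TNFSF9, which encodes the ligand of the receptor 4-1BB, led the late rising genes. It had 2.09, 3.08 and 2.02 CPM at 0.1 µM, 3.204, 2.71 and 2.92 CPM at 6 µM and 5.59, 4.87 and 4.44 CPM at 30 µM, with no overlap between 30 and 6 µM (slope 0.46, adjusted p = 3.17e-06). GRM2 and TLR5 followed with means of 1.15 and 1.37 CPM at 30 µM, and neither slope was called without the 30 µM dose (adjusted p = 0.198 and 0.468).

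Among falling genes, FOXCUT, a noncoding RNA next to FOXC1, led the middle class. It had 4.28, 3.82 and 4.13 CPM at 0.1 µM, 2.18, 1.96 and 2.204 CPM at 6 µM and 1.71, 1.66 and 1.66 CPM at 30 µM (slope -0.51 ± 0.06, adjusted p = 6.55e-08). With 2.42, 4.01 and 3.94 CPM at 1 µM and 2.404, 2.81 and 3.63 CPM at 3 µM, the same libraries stood apart as for HMOX1. SLC26A1 and FRMD6-AS1 followed in that class. SYNPO, which encodes the actin-binding protein synaptopodin, led the even falling genes, from 5.73, 5.81 and 6.204 CPM at 0.1 µM to 2.45, 2.59 and 2.44 CPM at 30 µM, with MCTP1 and ARHGAP30 next. The late falling class was led by EDN1, KLHDC8A and NCKAP5, and the early one by CYP1B1, PRKG1-AS1 and TIPARP.

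Few single genes were called within the low doses. The slope within 0.1 to 3 µM called 3 genes higher (0.0169%) and 1 lower (0.00562%), with an unadjusted p under 0.05 for 1420. The called genes were SDF2L1, an ER chaperone cofactor (slope 0.28 ± 0.05, adjusted p = 0.0499), ANKRD1, an ankyrin repeat protein and YAP target (0.29 ± 0.06), MAP3K14, the kinase NIK (0.48 ± 0.08), and TIPARP, an AHR target (-0.49 ± 0.09), of which MAP3K14 was named after its values were seen. Each of these calls was lost in many of the 24 fits without 1 library: ANKRD1 in 17 (adjusted p up to 0.462), SDF2L1 in 16 (up to 0.383), TIPARP in 16 (up to 0.462) and MAP3K14 in 12 (up to 0.383). Without 1 µM library 1 and 3 µM library 3 the counts were 32 and 5, and without all 3 libraries 70 and 16, with all 4 genes among them. In that last fit HMOX1 had a low-dose slope of 1.105 (adjusted p = 3.00e-15), HSPA5 of 0.56 (adjusted p = 3.38e-12), PDIA4 of 0.39 and HSP90B1 of 0.37. Since 1 µM library 1 and 3 µM library 3 were picked on the rising genes, these values are no independent evidence of a low-dose rise. In the fit of all 24 libraries HMOX1 had 1.06 (adjusted p = 0.0611) and HSPA5 0.47 (adjusted p = 0.103), neither called.

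By 6 µM, 258 genes were higher than at 0.1 and 0.3 µM (1.45%) and 77 were lower (0.433%). The fit without the 3 libraries called 514 and 237, although the contrast rests on the same 9 libraries, since the spread is estimated over all doses. All 335 genes called in the first fit were among the 751 of the second. The slope within 6 to 30 µM called 584 genes higher (3.28%) and 674 lower (3.79%), and 904 and 1054 without the 3 libraries. The contrast of 30 µM with 10 and 15 µM called 54 genes higher (0.303%) and 155 lower (0.871%), and 174 and 409 without the 3 libraries. Single libraries also moved these counts: 30 µM against 10 and 15 µM called 2 higher and 15 lower without 30 µM library 1, the 6 µM contrast 114 and 25 without 6 µM library 3, and the slope within 6 to 30 µM 267 and 355 without 6 µM library 1. Without 10 µM library 1 those of the 6 µM contrast were 442 and 192.

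The ATF6 list holds ER chaperones and their partners, and all of its 12 genes rose with dose. All 12 were also higher at 6 µM, and none was called in the contrast of 30 µM with 10 and 15 µM or in curvature. For this and the lists below, 9.61% of all genes tested rose, 8.8% fell, and 1.45% were higher and 0.433% lower at 6 µM. An upward curvature was called in 2.68% of all genes and a rise within 6 to 30 µM in 3.28%. The median difference from the 2 lowest doses at 1, 3, 6, 15 and 30 µM was 0.14, 0.36, 0.63, 0.78 and 0.75 log2 units. The median slope was 0.37, against 0.0009 over all genes tested, and the median midpoint dose was 3.06 µM over the 9 members for which it is defined. HSP90B1, the ER member of the HSP90 family, went from 1202 ± 57.3 CPM at 0.1 µM (mean ± SD, n = 3) to 2038 ± 40.4 CPM at 6 µM and 2174 ± 70.99 CPM at 30 µM (slope 0.41 ± 0.03, adjusted p = 7.22e-11).

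SDF2L1 had a midpoint dose of 1.75 µM (1.54 to 2.02 µM), with 48.7, 48.5 and 48.9 CPM at 0.1 µM, 65.4, 67.05 and 59.7 CPM at 3 µM and 73.7, 69.2 and 73.97 CPM at 30 µM. All its 3 µM libraries, library 3 included, stood above all at 0.1 µM. Its vehicle libraries had 66.98, 41.2 and 43.5 CPM, and vehicle library 1 thus lay among the AA132 libraries at 3 µM and above. MANF, a secreted ER stress factor, and CRELD2 had midpoint doses of 2.57 and 2.56 µM, and the disulfide isomerase PDIA4, the chaperone HYOU1 and HERPUD1 had 3.64, 4.02 and 4.18 µM. Without the 3 libraries these last 3 were 2.6, 3.09 and 2.74 µM, and MANF and CRELD2 2.02 and 2.26 µM. Without 3 µM library 3 alone HERPUD1 was at 2.68 µM and HSPA5 at 2.01 µM. HERPUD1, an ER degradation factor, was the member with a called rise within 6 to 30 µM (slope there 0.58), which 5 of 24 fits with a library removed did not call (adjusted p up to 0.0856). Without the 3 libraries 10 of the 12 were called within 0.1 to 3 µM, against 1 in the full fit, and 4 within 6 to 30 µM.

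The ER stress element that ATF6 is known to bind was looked for in promoters from 250 bases before to 50 after the RefSeq start (GRCh38.p14). The motif CCAAT, any 9 bases, CCACG, on either strand, was found in 18 of 13039 promoters of tested genes (0.138%), among them 4 of the 12 of the ATF6 list. Of the 71 middle rising genes with a promoter, 5 held it (7.04%): CALR, CRELD2, HSP90B1, HSPA5 and XBP1. It was in 1 of 79 even rising genes (1.27%, ERO1B) and in none of the 17 early and 31 late ones, numbers too small to compare the shapes. Of the 18 genes, 11 were called rising and 1 falling. The promoters of HSPA5 and HSP90B1, both abundant ER chaperones that rose with dose, show it in single and double form, with the motif in capitals.
HSPA5 (chr9:125241294-125241593, minus strand): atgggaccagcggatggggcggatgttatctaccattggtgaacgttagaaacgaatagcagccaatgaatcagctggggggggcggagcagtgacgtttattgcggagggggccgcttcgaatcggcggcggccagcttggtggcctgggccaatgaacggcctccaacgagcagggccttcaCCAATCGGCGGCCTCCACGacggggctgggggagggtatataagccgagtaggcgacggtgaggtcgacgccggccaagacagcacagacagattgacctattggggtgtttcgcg
HSP90B1 (chr12:103930160-103930459, plus strand): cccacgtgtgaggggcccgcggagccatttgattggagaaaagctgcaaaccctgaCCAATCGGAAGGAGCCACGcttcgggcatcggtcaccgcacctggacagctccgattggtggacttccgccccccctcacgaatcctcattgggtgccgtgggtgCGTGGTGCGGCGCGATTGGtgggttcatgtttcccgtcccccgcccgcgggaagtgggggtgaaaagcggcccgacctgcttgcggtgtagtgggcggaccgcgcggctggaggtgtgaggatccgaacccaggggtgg
In HSP90B1 the first match reads along the strand of the gene and the second on the opposite strand.

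The XBP1s list holds secretory pathway genes, of which 10 of 15 rose and none fell, with a median difference of 0.09 log2 units at 6 µM and 0.28 at 30 µM. Its members followed separate curves. DNAJC3, an ER co-chaperone, and DNAJB9, a textbook XBP1s target, were higher at 6 µM, from 18.1 ± 2.64 to 27.5 ± 1.25 CPM and from 9.96 ± 0.747 to 12.6 ± 0.843 CPM between 0.1 and 6 µM (mean ± SD). PDIA3, an ER disulfide isomerase, was the other member called there. SEC61A1, SSR1, SSR3 and SEC24D, which serve translocation into and export from the ER, had a called upward curvature and rose within 6 to 30 µM. SEC61A1, the channel of the translocon, had 183, 187 and 197 CPM at 0.1 µM, 189, 193 and 187 CPM at 6 µM and 229.9, 234 and 250.2 CPM at 30 µM, with a slope of 0.46 within 6 to 30 µM and no overlap between 6 and 30 µM. Without the 30 µM dose, the slopes of SSR1 (0.05, adjusted p = 0.149) and SSR3 (0.09, adjusted p = 0.0783) were not called.

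The PERK arm and integrated stress response list rose in 21 of 22 genes, with VLDLR at a slope of -0.0092 (adjusted p = 0.798). In it 13 members had a called upward curvature, 13 rose within 6 to 30 µM, and 8 were higher at 6 µM. The direction of curvature depends on the axis: on dose in µM it turned negative for all 5 members refitted so (ASNS, CHAC1, SLC3A2, SLC7A11 and TRIB3), and on dose rank SLC3A2 (adjusted p = 0.277), SLC7A11 (0.386) and TRIB3 (0.08) were not called. The list median at 3, 6, 15 and 30 µM was 0.11, 0.25, 0.45 and 0.56 log2 units, and the median midpoint dose was 8.07 µM over 14 members. DDIT3, the factor CHOP, had 7.87, 7.14 and 6.896 CPM at 0.1 µM, 14.3, 15.4 and 16.8 CPM at 6 µM, 23.4, 18.4 and 18.3 CPM at 10 µM and 19.6, 19.04 and 20.8 CPM at 30 µM. Its midpoint dose of 3.69 µM (2.98 to 4.1 µM) was below the list's median, and its libraries at 10 and 30 µM overlapped.

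ASNS, asparagine synthetase, stayed near its lowest-dose level to 3 µM and was highest at the top dose. It had 173, 201 and 189 CPM at 0.1 µM, 189, 209.6 and 179.6 CPM at 3 µM and 212, 220.2 and 222 CPM at 6 µM. Then it had 223, 265 and 274 CPM at 10 µM, 252, 260.3 and 272 CPM at 15 µM and 300.3, 301 and 327 CPM at 30 µM, and all libraries at 30 µM stood above all at 15 µM. It was called both at 6 µM (0.23 ± 0.06, adjusted p = 0.0321) and at 30 µM against 10 and 15 µM (0.26 ± 0.06, adjusted p = 0.0201), contrasts that share no library. Leaving out 1 library ended the first call in 7 of 24 fits (adjusted p up to 0.172) and the second in 3 (up to 0.129), while both held without the 3 libraries. CHAC1, a glutathione-degrading enzyme of the late class, had 7.97, 6.57 and 7.402 CPM at 0.1 µM, 9.02, 11.8 and 10.7 CPM at 15 µM and 12.4, 13.5 and 12.2 CPM at 30 µM, with a midpoint dose of 11.3 µM (8.28 to 12.5 µM) against 8.26 µM for ASNS. In 10 µM library 1 CHAC1 was at 6.22 CPM, below 10.2 and 10.4 CPM in the other libraries of that dose.

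SESN2, PPP1R15A and PSAT1 had midpoint doses of 11.5, 10.5 and 10.4 µM, and TRIB3 of 8.11 µM. Without the 3 libraries these were 8.44, 6.93, 7.88 and 6.77 µM, and leaving out 10 µM library 1 alone gave the same value for each. That library alone also moved ASNS to 7.55 µM and CHAC1 to 8.28 µM. These late midpoint doses thus depend on 1 library, and the list's median of 8.07 µM was not recomputed without it. ATF4 itself rose by a slope of 0.14 and, at 30 µM against 10 and 15 µM, by 0.22 (adjusted p = 0.0435), a call lost in 14 of 24 fits without 1 library (adjusted p up to 0.282) and held without the 3 libraries (0.20, adjusted p = 0.0218). Of the 11 aminoacyl-tRNA synthetases, which charge tRNAs and include ATF4 targets, 8 rose, with a median slope of 0.06 and a list median of 0.18 log2 units at 30 µM. Without 30 µM library 3 alone 5 of them were called, and without the whole 30 µM dose 4. AARS went from 319.6 ± 7.04 CPM at 0.1 µM to 396 ± 13.1 CPM at 30 µM (mean ± SD).

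Promoters of these genes were searched for the core TGATGNAA of the element that ATF4 binds with C/EBP partners (CARE), on either strand. It was present in 227 of 13039 promoters (1.74%), in 4 of 19 of the integrated stress response list (21.1%) and in 5 of 6 of the synthetase list (83.3%). Of 31 late rising genes with a promoter, 3 held it (9.68%). ASNS and CHAC1, described above, both have a match, in capitals.
ASNS (chr7:97872359-97872658, minus strand): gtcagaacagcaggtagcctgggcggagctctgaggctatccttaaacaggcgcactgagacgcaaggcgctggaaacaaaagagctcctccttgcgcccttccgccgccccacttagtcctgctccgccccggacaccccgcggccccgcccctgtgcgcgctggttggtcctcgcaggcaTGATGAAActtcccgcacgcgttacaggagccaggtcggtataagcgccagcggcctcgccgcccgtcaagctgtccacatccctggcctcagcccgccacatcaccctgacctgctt
CHAC1 (chr15:40953221-40953520, plus strand): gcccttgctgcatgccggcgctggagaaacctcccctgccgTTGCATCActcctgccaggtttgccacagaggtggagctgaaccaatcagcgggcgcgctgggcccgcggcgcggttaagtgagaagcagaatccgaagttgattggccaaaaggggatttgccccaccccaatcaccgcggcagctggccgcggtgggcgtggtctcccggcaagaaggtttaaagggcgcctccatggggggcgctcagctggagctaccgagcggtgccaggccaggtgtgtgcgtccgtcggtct
The match lies 68 bases before the start in ASNS (at -68) and 209 before it in CHAC1 (at -209), where it reads on the opposite strand.

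**Figure D3:**
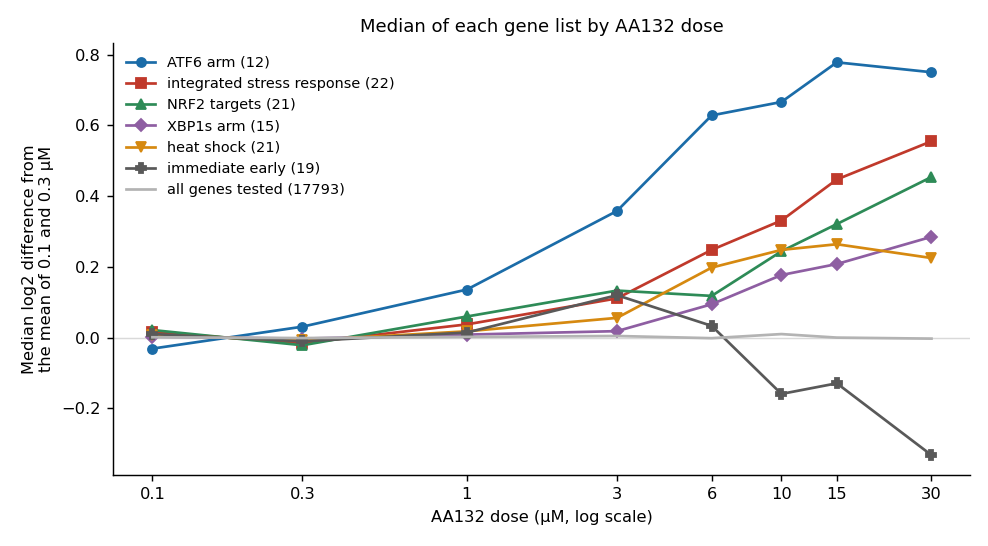
Median log2 difference of each gene list from the mean of 0.1 and 0.3 µM against AA132 dose on a log axis. The ATF6 list stands at 0.63 log2 units at 6 µM and 0.75 at 30 µM, whereas the integrated stress response list goes from 0.25 at 6 µM to 0.56 at 30 µM.

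NRF2 targets act in glutathione, thioredoxin, NADPH and iron handling. Of 21 tested, 14 rose and 1 fell, 9 had a called upward curvature and 8 rose within 6 to 30 µM. Over all genes tested these shares were 9.61%, 8.8%, 2.68% and 3.28%. OSGIN1, an oxidative stress growth inhibitor, had 1.39, 1.58 and 1.41 CPM at 0.1 µM, 2.97, 2.52 and 3.29 CPM at 6 µM and 6.77, 7.19 and 9.13 CPM at 30 µM (slope 1.06 ± 0.09, adjusted p = 3.95e-10). It was called at 6 µM (1.12, adjusted p = 0.00191) and again at 30 µM against 10 and 15 µM (0.75, adjusted p = 0.0288), the latter lost in 5 of 24 fits without 1 library (up to 0.174). SLC7A11, the cystine carrier, which ATF4 also controls and which stands in both lists, had 7.97, 5.53 and 8.28 CPM at 0.1 µM, 13.9, 15.4 and 13.3 CPM at 6 µM, 30.2, 28.5 and 30.7 CPM at 15 µM and 41.4, 39.98 and 22.2 CPM at 30 µM. Its 30 µM libraries lay far apart, with library 3 below all libraries at 15 µM.

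TXNRD1, thioredoxin reductase, and SRXN1, sulfiredoxin, had midpoint doses of 4.15 and 4.41 µM, near the 4.19 µM of HMOX1, while GCLM, a subunit of glutathione synthesis, stood at 6.23 µM, the quinone reductase NQO1 at 8.91 µM and FTL, ferritin light chain, at 11.1 µM (9.19 to 12 µM). FTL had 186, 216 and 190.1 CPM at 0.1 µM, 227, 228 and 225 CPM at 6 µM and 312, 324 and 344 CPM at 30 µM, all 30 µM libraries above all others. The difference of 30 µM from 10 and 15 µM was 0.31 (adjusted p = 0.0142), a call lost in 2 of 24 fits without 1 library (up to 0.0972). FTH1, ferritin heavy chain, also rose within 6 to 30 µM (slope there 0.58). Enzymes of NADPH and pentose phosphate metabolism moved little: ME1 rose with a slope of 0.08, PGD and TKT had -0.02 and -0.03 and were not called, and TALDO1 fell with a slope of -0.06 (adjusted p = 0.0449), a call lost in 13 of 24 fits without 1 library (up to 0.119) and without the 30 µM dose (adjusted p = 0.511).

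Heat shock genes encode chaperones controlled by HSF1, most of them cytosolic. Of 21 members 11 rose and none fell, and 8 were higher at 6 µM, against 9.61%, 8.8% and 1.45% of all genes tested. The list median at 6, 15 and 30 µM was 0.20, 0.26 and 0.23 log2 units. HSPA6, a stress-induced HSP70, had 1.23, 1.42 and 1.41 CPM at 0.1 µM, 3.28, 4.51 and 4.33 CPM at 6 µM, 2.51, 7.48 and 6.16 CPM at 10 µM and 8.34, 7.54 and 8.297 CPM at 30 µM (slope 1.096 ± 0.09, adjusted p = 1.71e-10), the lowest of the 10 µM libraries being the one that stood apart. HSPA1A rose from a mean of 1152 CPM at 0.1 µM to 2084 CPM at 6 µM, 3061 CPM at 15 µM and 3045 CPM at 30 µM. HSPA1B, a near-identical copy between which reads may have been split, so that both values are uncertain, rose alongside (slope 0.60). HSPE1, the mitochondrial co-chaperonin, fell within 6 to 30 µM (slope there -0.43, not called without 30 µM library 1 or 2), and without the 3 libraries DNAJA1, STIP1 and FKBP4, cytosolic co-chaperones, did as well (-0.24, -0.32 and -0.20). HSPA8 and HSPH1 rose by 0.27 and 0.23 at 6 µM and stood at -0.11 and -0.03 in the 30 µM contrast, uncalled.

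The heat shock element, alternating units of GAA and TTC (GAANNTTCNNGAA or TTCNNGAANNTTC), was found in 46 of 13039 promoters (0.353%) and in 5 of 19 of the heat shock list (26.3%). HSPA6, the steepest member, holds 1 match, 74 bases before its start (at -74).
HSPA6 (chr1:161524290-161524589, plus strand): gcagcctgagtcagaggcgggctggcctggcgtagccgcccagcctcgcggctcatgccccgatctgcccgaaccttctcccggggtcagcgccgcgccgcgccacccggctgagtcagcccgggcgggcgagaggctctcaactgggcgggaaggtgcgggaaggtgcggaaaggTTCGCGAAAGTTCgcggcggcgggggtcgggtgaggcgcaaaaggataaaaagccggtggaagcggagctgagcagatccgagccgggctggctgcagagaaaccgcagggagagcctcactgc
The antioxidant response element core TGACNNNGC was in 14.8% of all promoters and in 5 of 16 of the NRF2 list (31.2%), but also in 36.8% of the integrated stress response and 33.3% of the ATF6 promoters. The xenobiotic response element core GCGTG was in 49.6% of all promoters in 4 of 4 of the AHR list, in 6 of 6 of the synthetase list and in 91.7% of the SREBP list, so neither core sets its own list apart here.

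The aryl hydrocarbon receptor (AHR) is a ligand-activated factor that raises CYP1A1, CYP1B1 and TIPARP. Of 5 listed genes 3 fell with dose (CYP1A1, CYP1B1 and TIPARP), and 1, NQO1, which NRF2 also controls, rose. The same 3 were lower at 6 µM, and within 0.1 to 3 µM TIPARP alone was called (2 genes without the 3 libraries). TIPARP (chromosome 3, 156673235 to 156706770) had 37.8, 38.3 and 43.5 CPM at 0.1 µM, 28, 27.3 and 28.5 CPM at 0.3 µM and 32.9, 45.3 and 44.2 CPM in vehicle. All its 0.3 µM libraries stood below all 0.1 µM libraries, and the 1 µM values of 19.6, 29.4 and 33.4 CPM and the 3 µM values of 18.4, 19.2 and 30.6 CPM again set 1 µM library 1 and 3 µM library 3 apart. It had 21.98, 21.2 and 18.6 CPM at 6 µM and 26.5, 23.9 and 22.4 CPM at 30 µM (slope -0.31, curvature 0.25, adjusted p = 0.0183). All its 30 µM libraries thus stood above all at 6 µM, a fall that turned partly back. Without the 3 libraries its slope within 6 to 30 µM was 0.34 (adjusted p = 0.0467). In the full fit the list's median slope there was 0.765, with 1 gene called, and NQO1, which rose over the whole range, enters that median. Without the 3 libraries NQO1 (0.74, adjusted p = 0.00382) was called there beside TIPARP. CYP1A1 (adjusted p = 0.153), CYP1B1 (0.072) and AHRR (0.865) were not called. The curvature of TIPARP was not called without 0.1 µM library 3 or 30 µM library 1 (adjusted p up to 0.0562). CYP1B1 and CYP1A1, enzymes of xenobiotic metabolism, had mean levels of 7.09 and 1.59 CPM at 0.1 µM, 2.84 and 0.4698 CPM at 6 µM, and 4.12 and 0.698 CPM at 30 µM. On dose in µM rather than its logarithm, none of the 3 slopes was called (adjusted p = 0.0817 for CYP1A1, 0.127 for CYP1B1 and 0.0998 for TIPARP).

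The immediate early and growth factor list fell in 8 of 19 genes and rose in 3 (JUN, DUSP1 and KLF6). Over all genes tested 8.8% fell and 9.61% rose, and at 6 µM 1.45% were higher and 0.433% lower. At 6 µM 5 members were higher (FOSL1, JUN, DUSP1, CTGF and KLF6) and 3 were lower (EGR1, FOS and IER3). IER3 went from 32.8 ± 1.204 CPM at 0.1 µM to 19.2 ± 0.974 CPM at 6 µM and 19.1 ± 1.83 CPM at 30 µM (mean ± SD). EDN1, which encodes the vasoconstrictor endothelin 1, was lower at high dose. It had 7.57, 7.41 and 9.11 CPM at 0.1 µM, 10.01, 7.14 and 9.14 CPM at 6 µM, 6.69, 6.26 and 5.75 CPM at 10 µM, 5.07, 4.24 and 4.48 CPM at 15 µM and 2.48, 2.37 and 2.61 CPM at 30 µM. Its libraries at 10, 15 and 30 µM did not overlap each other. The difference of 30 µM from 10 and 15 µM was -1.11 ± 0.17 (adjusted p = 0.00148) and the midpoint dose 15.9 µM (15 to 16.5 µM). Without the 30 µM dose its slope was -0.16 (adjusted p = 0.239), and 4 list members were then called as falling. In 1 µM library 1 EDN1 was at 4.58 CPM, below 8.798 and 9.32 CPM in the other 1 µM libraries. DUSP5, a MAPK phosphatase, also fell within 6 to 30 µM (slope there -1.001), with 9.53, 10.1 and 9.22 CPM at 6 µM and 6.18, 5.91 and 5.61 CPM at 30 µM.

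**Figure D4:**
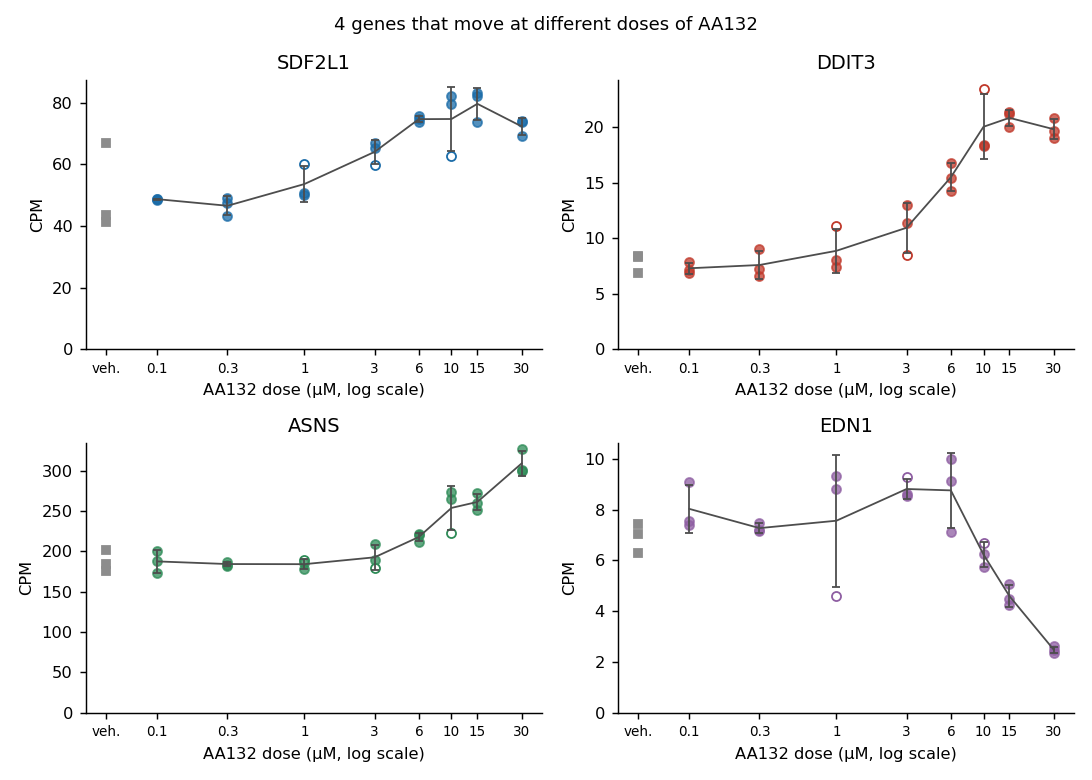
CPM of SDF2L1, DDIT3, ASNS and EDN1 against AA132 dose on a log axis, with libraries as circles (open for the 3 that stood apart), mean ± SD as lines and bars, and vehicle as grey squares. The midpoint dose goes from 1.75 µM for SDF2L1 through 3.69 µM for DDIT3 and 8.26 µM for ASNS to 15.9 µM for EDN1.

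A called rise at 6 µM followed by a called fall at 30 µM was seen in 4 genes, ANKRD1, CTGF, KRT19 and ACTBL2. They are 1.55% of the 258 genes higher at 6 µM, where 0.871% of all genes were lower at 30 µM. Whether these shares differ was not tested. ANKRD1 (chromosome 10, 90912096 to 90921087) had 113, 118 and 115 CPM at 0.1 µM, 186, 182 and 185 CPM at 6 µM and 155, 175 and 176 CPM at 10 µM. It had 169, 139 and 125 CPM at 15 µM and 112, 104 and 108 CPM at 30 µM, so that the top dose overlapped vehicle (109.7, 111 and 105 CPM). The rise was 0.67 ± 0.07 (adjusted p = 2.16e-06) and the later difference -0.53 ± 0.08 (adjusted p = 0.00148), and its slope over the whole range was not called (0.14, adjusted p = 0.104). CTGF, the older name of CCN2, which encodes a matricellular protein and is, like ANKRD1, a YAP target, had 337, 333 and 346 CPM at 0.1 µM, 457, 419.7 and 442 CPM at 6 µM and 275, 293 and 266 CPM at 30 µM. All 30 µM libraries of CTGF stood below all at 0.1 µM, and its differences were 0.32 ± 0.06 (adjusted p = 0.00369) and -0.31 ± 0.06 (adjusted p = 0.0143).

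KRT19, a keratin, was 0.23 ± 0.06 higher at 6 µM (adjusted p = 0.0289) and differed by -0.26 ± 0.06 at 30 µM (adjusted p = 0.0208). For ACTBL2, an actin-like protein, these values were 0.26 ± 0.05 (adjusted p = 0.00845) and -0.25 ± 0.06 (adjusted p = 0.02296). Leaving 1 library out ended the KRT19 calls in 6 and 3 of 24 fits (adjusted p up to 0.154 and 0.131), the ACTBL2 calls in 1 and 4 (up to 0.0893 and 0.143) and the second CTGF call in 2 (up to 0.0954), while both ANKRD1 calls held in all 24. None of the 77 genes lower at 6 µM was then higher at 30 µM, where 0.303% of all genes were higher. A rise at both contrasts was called for ASNS, OSGIN1, PCK2, the mitochondrial form of PEP carboxykinase, and SYVN1, an ER ubiquitin ligase, and a fall at both for ANP32A, the last 3 being named after their values were seen. These were 4 of 258 (1.55%) and 1 of 77 (1.3%), against 0.303% and 0.871% of all genes at 30 µM. The second ANP32A call was lost in 18 of 24 fits without 1 library (adjusted p up to 0.221) and the first in 2 (up to 0.2002). For PCK2 the 6 and 30 µM calls were lost in 2 and 5 fits, and for SYVN1 in 3 and 4.

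**Figure D5:**
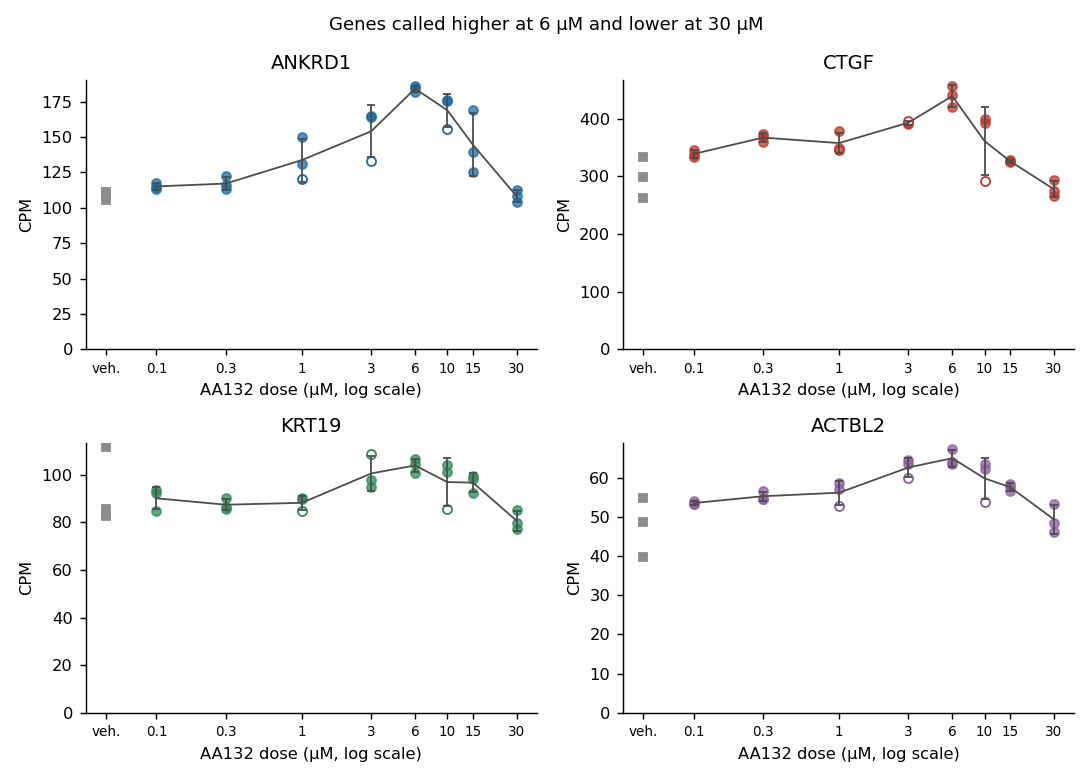
CPM of ANKRD1, CTGF, KRT19 and ACTBL2 against AA132 dose on a log axis (circles libraries, open for the 3 that stood apart, lines and bars mean ± SD, grey squares vehicle). In each panel the 30 µM libraries lie below every 6 µM library, as for ANKRD1 with 112, 104 and 108 CPM at 30 µM and 186, 182 and 185 CPM at 6 µM.

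Of 18 SREBP targets, which serve cholesterol and fatty acid synthesis, 4 rose, HMGCS1, INSIG1 and SC5D among them, and 4 fell within 6 to 30 µM, among them HMGCS1 (slope there -0.33), LSS (-0.27) and FASN (-0.36, a call lost in 5 of 24 fits without 1 library). HMGCS1 thus was 0.30 higher at 6 µM and fell within the high doses. Of 4 tested metallothioneins 2 rose. Of 31 proteasome subunits 4 rose, a share near that of all genes. Of 20 DNA replication genes 1 rose and 4 fell, but none rose in 18 of 24 fits without 1 library, and 2 fell without 0.3 µM library 2, 30 µM library 1 or 30 µM library 2. Of 10 reference genes 2 fell, and the median slopes were -0.0076 for the replication and -0.02 for the reference genes. Over all genes tested 9.61% rose and 8.8% fell, and 3.79% fell within 6 to 30 µM. Whether the counts of these lists differ from those shares was not tested.

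Thapsigargin against vehicle, a comparison that no AA132 library enters, called 1871 genes higher (10.5%) and 1667 lower (9.37%). Vehicle library 1 stood apart from the other vehicle libraries, and without it and AA147 library 1 the counts were 3201 and 3076. In the full fit, 42 of the 87 middle rising genes were higher under Tg (48.3%), with a median of 0.76 log2 units. The shares were 14 of 42 in the late (33.3%), 37 of 109 in the even (33.9%) and 5 of 23 in the early rising genes (21.7%), whose medians were 0.24, 0.30 and 0.18, against 0.005 over all genes. Whether these shares differ between shapes was not tested. Falling genes were lower under Tg in 13 of 62 middle, 13 of 40 late and 8 of 35 even members. Of the 6 early falling genes 0 were lower and 1 was higher under Tg, with a median of 0.31 log2 units.

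The lists also had separate values in this readout. All 12 ATF6 genes, all 22 integrated stress response genes and all 15 XBP1s genes were higher under Tg, with medians of 2.52, 1.97 and 1.35 log2 units. HSPA5 had 10969, 10778 and 11322 CPM under Tg, above each AA132 library. Of the 21 heat shock genes 15 were lower under Tg, and HSPA1A, which rose with AA132, was at -2.11 log2 units. HMOX1 was at 22.4, 29.3 and 24.9 CPM under Tg, below all AA132 libraries from 6 µM upward. CYP1A1 and CYP1B1, which fell with AA132, were higher under Tg by 1.07 and 0.66, and EDN1 was lower, at -1.81.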

How the data were processed

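The table deposited by the authors holds, per its file header, estimated counts (expected counts) per gene for 33 libraries, with 0.009 in place of 0 in 43.5% of cells. The submitters' processing notes name GRCh38.p7, and the aligner and counter are not given in the sources used here. The 0.009 values were set to 0, entries sharing a name (98 of 38074) were summed, and values were rounded to whole numbers (3.22% were not whole). CPM values (counts scaled to library size) use TMM-scaled library totals. Those of the cell markers and mitochondrial mRNA use plain totals over all genes, without TMM factors or the low-count filter. The low-count filter (filterByExpr, 17793 genes kept) and TMM factors came from all 33 libraries, and the fits used the 24 AA132 libraries, or the 9 others for Tg.

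Each gene was tested with edgeR 4.0.16 (quasi-likelihood F-test, R 4.3.3) with Benjamini-Hochberg adjustment over all tested genes and a threshold of 0.05. The tests were the slope and curvature on log10 dose, slopes within 0.1 to 3 µM and 6 to 30 µM, 6 µM against 0.1 and 0.3 µM, and 30 µM against 10 and 15 µM. Libraries of a dose differed by more than counting error (chi-square per degree of freedom 4.67 to 39.1, where counting error alone gives about 1), so none was counted as a repeat deposit. The fit was also run on simulated counts with 1 common dispersion and no library standing apart, unlike these data. Its outcome is not given here, and no result rests on it. The members and gene lists were chosen with earlier results of these data known. Named genes are HMOX1, HSPA5, list members, up to 3 per curve shape with the largest change, those called in opposite directions at 6 and 30 µM, and the largest curvatures. Of the listed genes, EPRS1, ABCC3 and 2 metallothioneins were not tested. Positions are from GENCODE v44 on GRCh38 and promoters from RefSeq (13039 of 17793 genes matched). Alternatives were DESeq2 1.42.0 (size factors, Wald test), other filters, dose scales and shape limits, and fits without single libraries. Leaving out the 3 libraries that stood apart, and dose in µM, were chosen after seeing the data. Values of 2 listed genes are not reported here.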

Additional observations from a re-analysis of the deposited data

How the results depend on the processing

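Of 168 comparisons of a count or shape with its value under an alternative, 109 stayed within 1.5 times, and of 1662 for single genes and lists 1579 kept direction and call. Counts below are higher then lower. The slope within 0.1 to 3 µM called 30 and 8 genes with the DESeq2 Wald test, 94 and 33 without a low-count filter, 6 and 2 with the replicate block, 32 and 5 without 1 µM library 1 and 3 µM library 3, and 70 and 16 without the 3 libraries that stood apart. The 6 µM contrast called 400 and 212 with DESeq2, 201 lower without a filter, and 514 and 237 without the 3 libraries. The 30 µM contrast called 234 and 359 with DESeq2, 162 and 349 without a filter, 84 higher with filter and scaling from the AA132 libraries, and 174 and 409 without the 3 libraries. The slope within 6 to 30 µM called 904 and 1054 without the 3 libraries. The whole-range slope called 1089 and 937 without the 30 µM dose. Curvature called 613 lower with DESeq2, 719 lower without a filter, 294 and 268 on dose rank, and 124 higher on dose in µM. Tg against vehicle called 3201 and 3076 without vehicle library 1 and AA147 library 1. Beyond fewer libraries or other gene sets, the cause was not tested.

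Shapes (early, middle, late, even) with a minimum change of 0.3 numbered 47, 243, 134 and 257 rising and 14, 182, 120 and 88 falling. With a minimum of 1 they numbered 8, 15, 6 and 30 rising and 0, 5, 7 and 6 falling. With class shares 10 points higher the rising ones numbered 13, 48, 23 and 177, and early, late and even falling ones 3, 21 and 74. With at least 1 CPM, 14 were early rising. Early falling genes numbered 11 without 1 µM library 1 and 3 µM library 3, and 14 without the 3 libraries.

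The sign of curvature turned on dose rank for HMOX1 (-0.0021). On dose in µM it turned for HMOX1 (-0.0081), SLC7A11 (-0.0040), OSGIN1 (-0.0033), CHAC1 (-0.00059), TRIB3 (-0.0014), ASNS (-0.00080), SLC3A2 (-0.0025), FTL (-0.00067), SEC61A1 (-0.00022), HCG4 (-0.00063), GCLM (-0.0022), SC5D (-0.00038) and HSPA1A (-0.0032).

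With each library left out in turn, calls ranged from 1473 to 1887 higher and 1328 to 1748 lower for the slope, 267 to 687 and 222 to 631 for curvature, 0 to 39 and 0 to 4 within 0.1 to 3 µM, 267 to 837 and 355 to 997 within 6 to 30 µM, 114 to 442 and 25 to 192 at 6 µM, 2 to 168 and 15 to 345 at 30 µM, and 1307 to 2554 and 1008 to 2426 for Tg. Shapes ranged from 17 to 29 early, 58 to 114 middle and 28 to 53 late rising, and from 5 to 14 early, 52 to 72 middle, 27 to 42 late and 27 to 41 even falling. Of 156 single-gene results, 119 kept their call in every such fit and 0 reversed.

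Column numbers showed no strong pairing of the libraries. Deviations of same-numbered libraries had a median correlation of 0.0408 (-0.296 to 0.343, over 0.1 in 28 of 84 pairs), against -0.0113 between other numbers. By this measure 11 of 24 libraries lay closest to their own number. Whether a weaker link by number exists was not tested. The replicate block left the other counts compared within 1.5 times, and the single genes compared kept direction and call. The calls of other genes were not compared.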
